A study of Mus musculus with 19 samples.

Results

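The genes described here are 32 genes that load, make and carry amino acids for protein synthesis, taken by name from a table of 38424 entries. They are 20 cytosolic aminoacyl-tRNA synthetases, 5 enzymes of serine and one-carbon metabolism, 6 amino acid transporters of the cell membrane and the transcription factor Atf5. All 32 were found once each, all passed a filter of at least 1 FPKM in at least 2 libraries (14942 entries did), and all reached 1 FPKM in every library. FPKM is a fragment count divided by transcript length and by the size of the library, so levels may be compared between genes.

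The data were 19 poly(A) RNA-seq libraries of differentiating mouse embryonic stem cells that carried a short hairpin against a long non-coding RNA, against the coding gene EVX1, or a control hairpin labelled shCtrl. In the retinoic acid culture, 46c cells were kept for 4 days in N2B27 (no serum) to which 5 nM retinoic acid and Glutamax were added, and gave 2 shNr2f1as, 1 shSox21os and 2 shPou3f3os libraries and 2 controls. In the other culture LIF, the cytokine that maintains stem cells, was withdrawn in a medium with 15% serum, nucleosides, Glutamax and 0.1 mM non-essential amino acids. There, CJ7 cells at day 4 gave 2 shEvx1as libraries and 1 control. CJ9 cells gave 2 shEVX1 libraries and 1 control at day 4, 2 shFendrr libraries and 2 controls at day 5, and 1 shLhx1os library and 1 control at day 6. CJ7 and CJ9 are labelled 129S4/SvJae, and no strain is given for 46c. Nothing in the labels tells if libraries numbered 1 and 2 came from separate cultures or hairpins. The p-values therefore cover the spread between the libraries alone, which may be technical.

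Library totals lay between 559050 and 655315 FPKM, and read counts were not used here. Neural progenitor markers (Sox1, Pax6, Sox3, Nes and Olig2 summed) lay between 278.3 and 373.8 FPKM in the 7 retinoic acid libraries and between 7.92 and 67.6 FPKM in the 12 others. Olig2 was near 0 in all of them. The entry for Evx1as had levels of 0.354 and 0.2902 FPKM in both shEvx1as libraries and 1.66 FPKM in the matching control, Evx1 at 30.2 and 37.1 FPKM in shEVX1 against 53.9 FPKM, and Fendrr at 0.358 and 0.0768 FPKM in shFendrr against 1.10 and 1.49 FPKM. The Lhx1os entry was listed at 0 in shLhx1os and at 0.0883 FPKM in its control. The Pou3f3os entry was at 2.40 and 4.13 FPKM in the libraries labelled shPou3f3os, against 5.202 and 1.98 FPKM in their controls, and did not separate them. The entries read for Evx1as, Lhx1os and Pou3f3os are named 5730457N03Rik, 1500016L03Rik and 2610017I09Rik. No entry carries the names Nr2f1as or Sox21os, and no other name was looked up for them, so their levels were not read.

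Aminoacyl-tRNA synthetases join each amino acid to its tRNA, the step that sets the genetic code. Phgdh, Psat1 and Psph turn a glycolytic intermediate into serine, and the mitochondrial enzymes Shmt2 and Mthfd2 pass serine's carbon to folate for nucleotide synthesis. When amino acids run short or protein folding fails, phosphorylation of the initiation factor eIF2 raises translation of the factor ATF4. ATF4 with a C/EBP partner binds a composite element, here searched as TGATGNAA, beside many genes of this kind, and Atf5 is itself a related, stress-regulated factor.

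Promoters from RefSeq (GRCm38.p6; 250 bases before to 50 after the start) were matched for 22 of the 32 genes. TGATGNAA, read on both strands, was found in the promoter of 6 of these 22 genes (27.3%), against 1219 of 27025 genes in the whole RefSeq table (4.51%). These were Aars, Gars, Iars, Tars, Yars and Slc1a4. The cyclic AMP element TGACGTCA was in none of the 22, against 2.03% of all genes, and the E-box CACGTG, a core bound by MYC and related factors, in 4 (18.2%), against 8.09%. These motifs can share letters at their ends and were counted separately. The windows of 80 bases around each TGATGNAA match are shown because TGATGNAA was the motif found most often of the 3 searched, and the capitals mark the match, which stands as its reverse complement in all but Yars. Aars held a pair, the first starting at -112 and the second at 9 with the first transcribed base counted as 0, at chr8:111033670-111033749 on the plus strand and chr8:111033791-111033870 on the plus strand. The others started at -30 in Gars (chr6:55037911-55037990 on the plus strand), 7 in Iars (chr13:49682077-49682156 on the plus strand), -15 in Tars (chr15:11399654-11399733 on the minus strand), 3 in Yars (chr4:129189846-129189925 on the plus strand) and -4 in Slc1a4 (chr11:20332698-20332777 on the minus strand). A match is a description and no evidence of binding.
Aars, upstream match: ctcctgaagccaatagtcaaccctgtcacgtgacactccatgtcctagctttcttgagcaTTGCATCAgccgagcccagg
Aars, match after the start: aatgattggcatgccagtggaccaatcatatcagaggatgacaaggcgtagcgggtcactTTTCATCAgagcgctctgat
Gars: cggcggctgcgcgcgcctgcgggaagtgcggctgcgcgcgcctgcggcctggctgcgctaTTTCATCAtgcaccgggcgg
Iars: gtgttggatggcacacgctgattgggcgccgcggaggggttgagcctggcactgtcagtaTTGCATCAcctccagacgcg
Tars: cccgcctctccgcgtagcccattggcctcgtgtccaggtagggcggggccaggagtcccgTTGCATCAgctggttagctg
Yars: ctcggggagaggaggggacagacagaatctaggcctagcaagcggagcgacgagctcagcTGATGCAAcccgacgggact
Slc1a4: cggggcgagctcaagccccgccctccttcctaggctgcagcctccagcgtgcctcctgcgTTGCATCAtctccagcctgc

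In the retinoic acid culture, 18 of the 32 genes were lower in every knockdown library than in both controls. That is 56.2% of the genes, against 12.6% of the 14942 entries tested. Only Qars and Slc7a3 were higher in all 5 (6.25%, against 15.8% of all entries). The 18 were 12 of the 20 synthetases, 3 of the 5 serine and one-carbon enzymes, 2 of the 6 transporters and Atf5. The 32 genes were chosen with earlier results of these data known, so these shares and those below are descriptions. All 32 also reached 1 FPKM in every library, which the entries tested need not. All 5 knockdown libraries were compared with the same 2 controls, so the 3 knockdowns are not independent of each other. In bulk RNA, fewer cells of a type and less RNA per cell cannot be told apart.

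**Figure D1:**
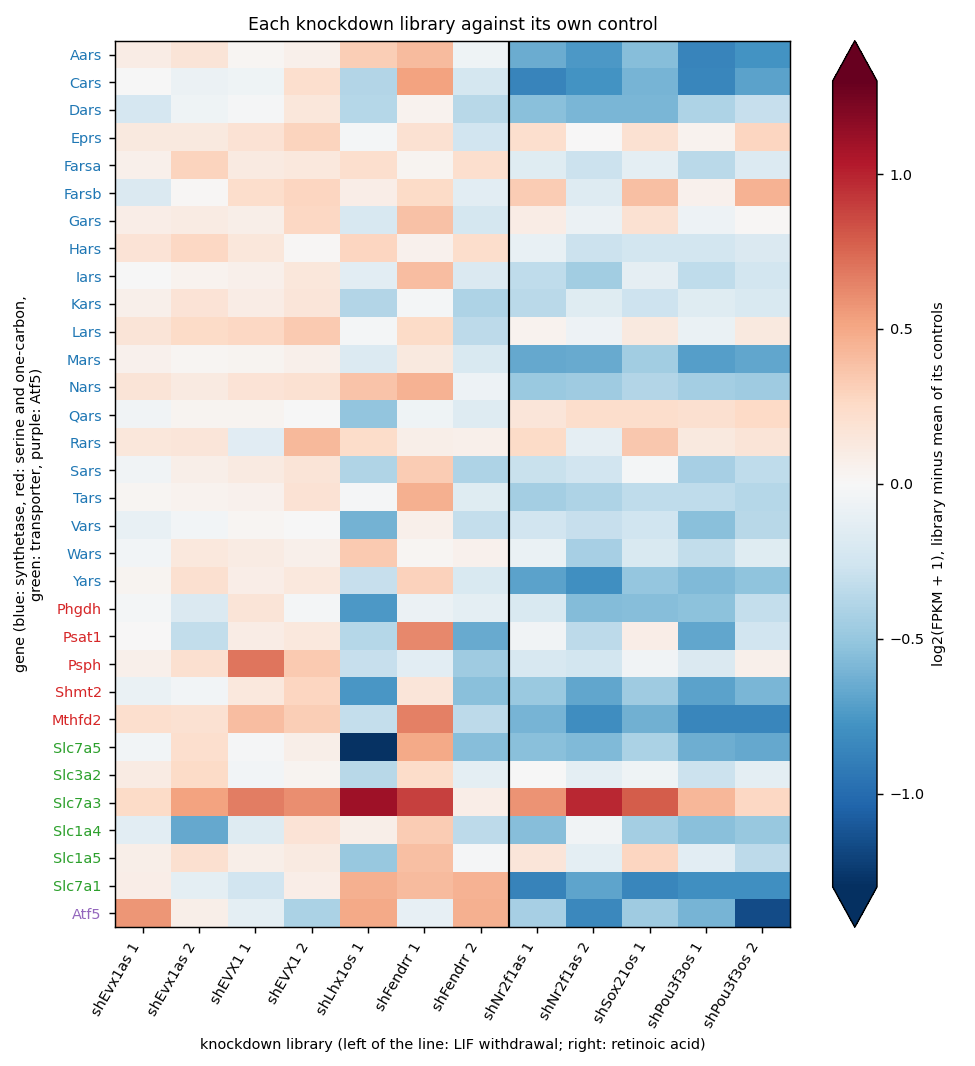
Log2(FPKM + 1) of each of the 32 genes (rows) in each knockdown library (columns) minus the mean of its own controls, blue for lower and red for higher. The 5 retinoic acid libraries right of the line are blue for most rows, with Slc7a3 and Qars red, and the 2 shFendrr libraries have opposite colours in many rows.

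Among the synthetases, Aars, which charges alanine tRNA (chromosome 8, 113557742 to 113579469; gene coordinates are mm9), measured 63.3 and 58.8 FPKM in shNr2f1as, 67.1 in shSox21os and 54.3 and 57.4 in those labelled shPou3f3os, against 92.5 and 107 FPKM in the controls. The groups did not overlap, and the highest knockdown library was shSox21os. Its log2 change was -0.82 ± 0.15 (SE) in the libraries labelled shPou3f3os (adjusted p = 0.0288 by limma), -0.69 in shNr2f1as (adjusted p = 0.0584) and -0.56 in shSox21os (adjusted p = 0.298). Mars, the methionine enzyme (chromosome 10, 126733277 to 126748842), measured 31.4 and 31.8 FPKM in shNr2f1as, 36.6 in shSox21os and 30.3 and 31.2 in those labelled shPou3f3os, against 47.8 and 53.4 FPKM in the controls. It fell in shNr2f1as by 0.66 ± 0.12 on the log2 scale (adjusted p = 0.0433 by limma) and in the libraries labelled shPou3f3os by 0.70 ± 0.12 (adjusted p = 0.0273), and its change in shSox21os was -0.45 (adjusted p = 0.293). Mars overlaps the stress gene Ddit3 in the table, which lay at up to 22.2 FPKM, and no source used here states whether counting used strand.

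Cars, the cysteine enzyme (chromosome 7, 150743135 to 150785995), measured 25.8 and 27.3 FPKM in shNr2f1as, 30.9 in shSox21os and 26.0 and 28.9 in those labelled shPou3f3os, against 46.8 and 48.1 FPKM in the controls. Yars, the tyrosine enzyme (chromosome 4, 128867039 to 128896851), measured 27.6 and 25.7 FPKM in shNr2f1as, 31.7 in shSox21os and 30.2 and 31.2 in those labelled shPou3f3os, against 48.1 and 42.7 FPKM in the controls. Dars, the aspartate enzyme (chromosome 1, 130308695 to 130313993 as the table gives it), measured 78.6 and 75.6 FPKM in shNr2f1as, 75.6 in shSox21os and 86.8 and 93.1 in those labelled shPou3f3os, against 109.9 and 119.8 FPKM in the controls. In all 3 genes every knockdown library lay below the lower control, and none passed in a knockdown taken alone. The lowest adjusted p was 0.0543 for Yars in shNr2f1as (limma), with a log2 change of -0.75. Yars overlaps the entry C77080, at up to 64.4 FPKM, and other members overlap entries too, up to the 255 FPKM of one that overlaps Lars.

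The asparagine enzyme Nars was at 47.9 and 48.6 FPKM in shNr2f1as, 51.6 in shSox21os and 49.3 and 48.8 in those labelled shPou3f3os, against 67.6 and 67.1 FPKM in the controls. Its 5 knockdown values lay within 47.9 to 51.6 FPKM and none came near the controls. Vars (valine) spanned 89.1 to 109.6 FPKM in the knockdowns, against 123 and 138 FPKM in the controls, Tars (threonine) 50.4 to 54.6 against 74.4 and 63.5 FPKM, and Iars (isoleucine) 30.6 to 38.8 against 41.4 and 42.9 FPKM. Smaller gaps of the same direction separated Kars (lysine; 159.5 to 182 against 200.4 and 207 FPKM), Farsa (a phenylalanine enzyme subunit; 46.9 to 54.8 against 58.0 and 61.9 FPKM) and Hars (histidine; 33.7 to 38.4 against 39.8 and 42.3 FPKM). None of these 7 passed in any of the 3 knockdowns.

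The other 8 synthetases overlapped the controls or ran the other way. Qars, the glutamine enzyme, was at 85.4 and 89.5 FPKM in shNr2f1as, 89.8 in shSox21os and 88.4 and 91.4 in those labelled shPou3f3os, against 78.3 and 74.4 FPKM in the controls, so every knockdown library was higher, with log2 changes of 0.19, 0.23 and 0.23 in that order of knockdowns and a lowest adjusted p of 0.191 (limma). Gars (glycine) spanned 78.3 to 95.1 FPKM in the knockdowns and 82.3 to 83.1 FPKM in the controls. Eprs (glutamate and proline), Lars (leucine), Sars (serine) and Wars (tryptophan) spanned 58.7 to 70.9, 25.3 to 29.5, 50.7 to 67.3 and 39.3 to 50.04 FPKM in the knockdowns, against 64.7 and 52.8, 27.2 and 26.7, 63.4 and 74.6 and 57.8 and 49.2 FPKM in the controls. Farsb, the partner subunit of Farsa, and Rars, the arginine enzyme, differed most between the controls themselves: Farsb was at 22.9 and 15.9 FPKM in shNr2f1as, 23.8 in shSox21os and 18.7 and 24.8 in those labelled shPou3f3os, against 24.2 and 13.2 FPKM in the controls, and Rars at 27.4 and 21.1 FPKM in shNr2f1as, 29.4 in shSox21os and 25.2 and 25.9 in those labelled shPou3f3os, against 27.6 and 19.04 FPKM in the controls. In both genes, the second shNr2f1as library was the lowest of the knockdowns. Of the 8 synthetases that sit in the multisynthetase complex (Dars, Eprs, Iars, Kars, Lars, Mars, Qars and Rars), 4 were below both controls in all knockdown libraries, as were 8 of the other 12, a grouping made after the values were seen.

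**Figure D2:**
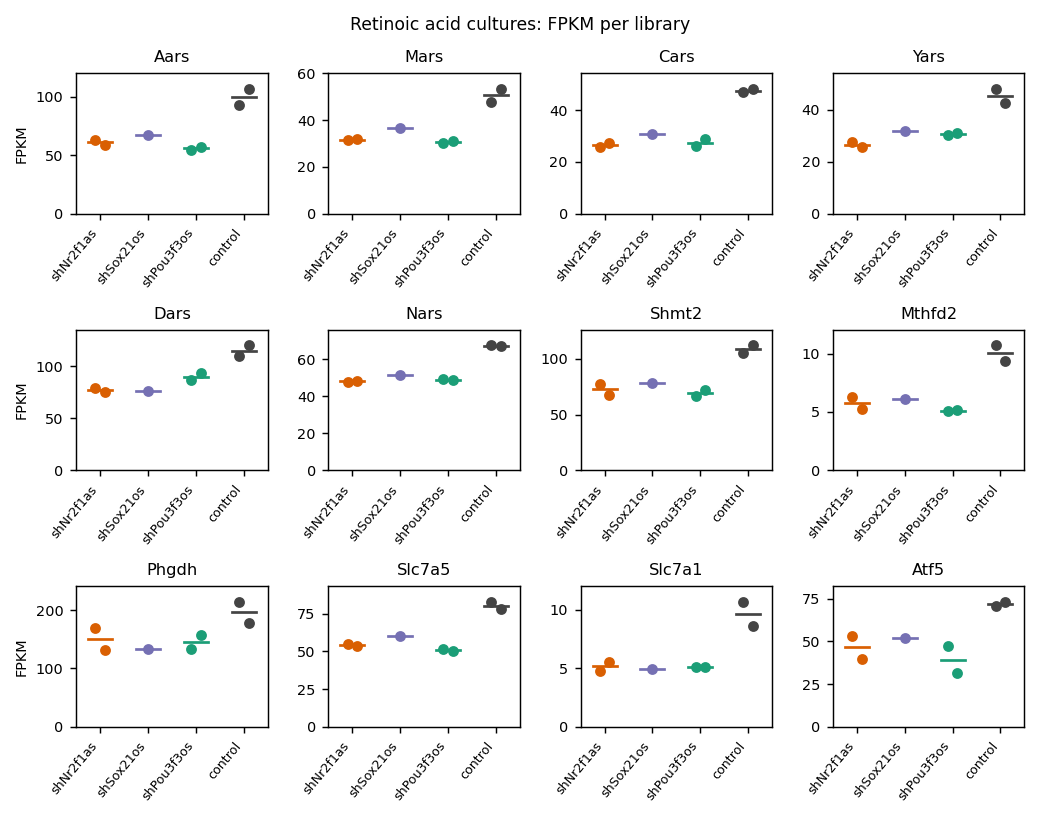
FPKM of 12 of the genes in each library of the retinoic acid culture, with points for libraries and bars for group means, knockdowns at left and the 2 controls at right. In each panel the 5 knockdown points lie below both control points, since all 12 genes were picked from the 18 with this order.

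In serine and one-carbon metabolism, Mthfd2, the mitochondrial methylenetetrahydrofolate dehydrogenase, was at 6.26 and 5.28 FPKM in shNr2f1as, 6.14 in shSox21os and 5.12 and 5.13 in those labelled shPou3f3os, against 10.7 and 9.36 FPKM in the controls. Shmt2, which splits serine to glycine in mitochondria, was at 77.6 and 67.7 FPKM in shNr2f1as, 78.6 in shSox21os and 66.4 and 71.7 in those labelled shPou3f3os, against 105 and 112 FPKM in the controls. Phgdh, the first enzyme of serine synthesis, was at 170.2 and 132 FPKM in shNr2f1as, 133 in shSox21os and 134 and 157 in those labelled shPou3f3os, against 214 and 178 FPKM in the controls. All 3 were lower in every knockdown library, and none passed in a single knockdown. The nearest was Shmt2 in the libraries labelled shPou3f3os, with a log2 change of -0.65 (adjusted p = 0.0826 by limma). Psat1 and Psph, the following steps of serine synthesis, overlapped the controls: Psat1 spanned 47.5 to 81.0 FPKM in the knockdowns against 88.0 and 66.2 FPKM in the controls, and Psph 13.1 to 16.4 against 15.0 and 16.2 FPKM.

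Of the transporters, Slc7a1, which carries arginine and lysine (chromosome 5, 149138986 to 149211480), measured 4.79 and 5.58 FPKM in shNr2f1as, 4.91 in shSox21os and 5.09 and 5.11 in those labelled shPou3f3os, against 10.7 and 8.62 FPKM in the controls. It fell in the libraries labelled shPou3f3os by 0.80 ± 0.17 on the log2 scale (adjusted p = 0.0438 by limma), and its changes in shNr2f1as and shSox21os were -0.78 (adjusted p = 0.0592) and -0.84 (adjusted p = 0.187). Slc7a5, the light chain of the leucine transporter LAT1, was at 54.9 and 53.7 FPKM in shNr2f1as, 60.1 in shSox21os and 51.4 and 50.2 in those labelled shPou3f3os, against 82.8 and 77.9 FPKM in the controls. Its heavy chain Slc3a2 spanned 70.5 to 85.1 FPKM in the knockdowns against 83.7 and 87.6 FPKM, so the ratio of light to heavy chain was 0.641 to 0.730 in the knockdowns and 0.890 and 0.9895 in the controls. Slc7a3, a second carrier of cationic amino acids, ran the other way from Slc7a1, at 3.68 and 5.17 FPKM in shNr2f1as, 4.40 in shSox21os and 3.23 and 2.76 in those labelled shPou3f3os, against 2.37 and 1.90 FPKM in the controls. Its log2 changes of 0.78, 0.79 and 0.35 in shNr2f1as, shSox21os and shPou3f3os did not pass (lowest adjusted p = 0.134 by limma). Slc1a4 (alanine, serine and cysteine) and Slc1a5 (glutamine) overlapped the controls, at 6.63 to 9.87 against 9.64 and 10.8 FPKM and 17.9 to 27.9 against 23.2 and 22.5 FPKM.

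Atf5 was at 53.2 and 39.9 FPKM in shNr2f1as, 51.9 in shSox21os and 47.2 and 31.6 in those labelled shPou3f3os, against 70.9 and 73.1 FPKM in the controls. The groups did not overlap, and the log2 changes of -0.63, -0.47 and -0.88 had adjusted p of 0.215, 0.613 and 0.0820 (limma).

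By comparison, 1 of the 32 genes passed as lower in shNr2f1as (Mars), against 0.254% of all entries tested, and 3 in the libraries labelled shPou3f3os (Aars, Mars and Slc7a1), against 0.716%. None passed in shSox21os, which has 1 library, against 0.0669% of entries called in either direction; the largest changes there were Slc7a1 at -0.84 ± 0.21, Slc7a3 at 0.79 ± 0.30 and Mthfd2 at -0.63 ± 0.31, the last with an adjusted p of 0.483 (limma). At an unadjusted p under 0.05 the counts were 15, 8 and 14 genes in shNr2f1as, shSox21os and shPou3f3os, of which 1 in each was higher. Those are 46.9%, 25% and 43.8% of the 32 genes, against 18.1%, 11.4% and 20.8% of all entries at the same unadjusted p. The median log2 change of the 32 genes was -0.27 in shNr2f1as, -0.25 in shSox21os and -0.35 in the libraries labelled shPou3f3os, against 0.04, 0.03 and 0.04 for all entries tested, and its sign was the same under each scaling tried. The Mars call in shNr2f1as was lost without shNr2f1as replicate 1 (adjusted p = 0.117 by limma), replicate 2 (0.109) or control replicate 2 (0.100). All 3 calls of the libraries labelled shPou3f3os were lost without either of them or without control replicate 2, with adjusted p of 0.136 to 0.203, and Slc7a1 also without control replicate 1 (0.0755).

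Taken as 1 arm against the 2 controls, a comparison added after the values were seen, the 3 retinoic acid knockdowns had 6 of the 32 genes lower and none higher, against 1.47% of all entries called lower and 2.5% called higher. These were Slc7a1 (log2 change -0.81 ± 0.15, adjusted p = 0.0204 by limma), Cars (-0.73 ± 0.17, 0.0401), Aars (-0.69 ± 0.13, 0.0207), Mars (-0.60 ± 0.10, 0.0169), Yars (-0.60 ± 0.13, 0.0322) and Dars (-0.50 ± 0.11, 0.0369). The median over the 32 genes was -0.25, against 0.04 over all entries. The count was 0 without control replicate 2, 2 without control replicate 1, 3 without shNr2f1as replicate 2 or either library labelled shPou3f3os, and 0 when the retinoic acid libraries were fitted alone.

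**Figure D3:**
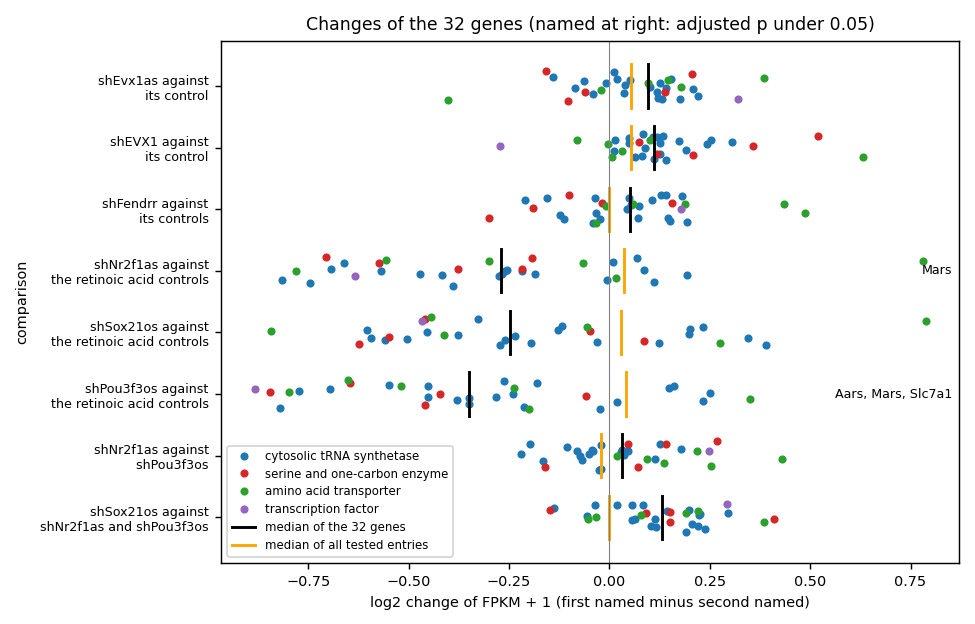
Log2 change of each of the 32 genes (points, coloured by role) in 8 comparisons, with the median of the 32 genes in black and of all tested entries in orange; genes that passed are named at right. The black line lies left of the orange line in the 3 comparisons with the retinoic acid controls, and right of it in the 5 others.

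The 2 controls of this culture differed from each other in pluripotency markers, and a fibroblast list moved with the knockdowns. Summed pluripotency markers (Pou5f1, Nanog, Zfp42, Esrrb and Klf4) were at 78.2 to 290.5 FPKM in the 5 knockdown libraries and at 66.5 and 424 FPKM in the controls. Neural progenitor markers were at 278.3 to 358 FPKM against 293 and 374 FPKM, and neuron markers at 39.7 to 64.7 against 63.6 and 68.5 FPKM. Fibroblast markers were higher in every knockdown library, at 18.3 to 47.0 FPKM against 9.70 and 11.1 FPKM, with Col1a1 and Col1a2 above both controls in each, Thy1 and the controls overlapping, and Postn and Dcn under 0.1 FPKM. The collagen Col1a2 passed as higher in shNr2f1as and in the libraries labelled shPou3f3os, but each call was lost on leaving out some single libraries. Its log2 change of 1.405 in shNr2f1as was 1.85 without shNr2f1as replicate 1 and 0.961 without replicate 2. The change of 1.144 in the libraries labelled shPou3f3os ran from 0.985 to 1.303 on leaving out 1 library. Trophoblast markers were at 55.5 to 82.5 FPKM against 29.1 and 52.5 FPKM, nearly all of it Krt18, with Cdx2, Elf5 and Plac1 under 0.5 FPKM. The part of these differences in the result was not tested.

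Genes that act beside the 32 were read from lists, which were chosen with earlier results of these data known. Of 20 tested genes of the Atf4 and integrated stress list, 1 was lower in shNr2f1as (Atf4), none in shSox21os and 4 in the libraries labelled shPou3f3os (Nupr1, Trib3, Atf4 and Sesn2), with none higher. Of all entries, 0.254% were called lower in shNr2f1as and 0.716% in the libraries labelled shPou3f3os. In shSox21os 0.0669% were called in either direction. Atf4, the factor itself, was at 70.5 and 88.3 FPKM in shNr2f1as, 71.7 in shSox21os and 71.8 and 72.7 in those labelled shPou3f3os, against 135 and 133 FPKM in the controls, with log2 changes of -0.75 ± 0.13 (adjusted p = 0.0380 by limma) in shNr2f1as, -0.89 ± 0.15 (0.0784) in shSox21os and -0.88 ± 0.13 (0.0243) in the libraries labelled shPou3f3os. Sesn2, a leucine sensor upstream of mTORC1, was at 46.8 and 49.7 FPKM in shNr2f1as, 50.7 in shSox21os and 44.1 and 42.7 in those labelled shPou3f3os, against 78.5 and 82.0 FPKM in the controls. Nupr1 and Trib3, stress-induced regulators, averaged 3.87 and 1.73 FPKM in the libraries labelled shPou3f3os, against 16.8 and 5.65 FPKM in the controls (n = 2 each; log2 changes -1.74 and -1.29, adjusted p = 0.0412 and 0.0446 by limma). The Nupr1 change rested on controls that differed, at -2.38 without control replicate 1 and -1.09 without control replicate 2. The list median was -0.12, -0.12 and -0.32 in shNr2f1as, shSox21os and shPou3f3os. The Atf4 call in shNr2f1as was lost without shNr2f1as replicate 1 (adjusted p = 0.107 by limma) or control replicate 2 (0.0710). All 4 calls of the libraries labelled shPou3f3os were lost without either of them or without control replicate 2, at adjusted p of 0.0763 to 0.229, and Sesn2 also without control replicate 1 (0.0508). None of 12 endoplasmic reticulum chaperone genes passed in any of them, with medians of -0.16, -0.11 and -0.31 in the same order.

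Myc, the growth regulator whose protein binds the E-box, was at 7.70 and 8.48 FPKM in shNr2f1as, 7.06 in shSox21os and 7.38 and 11.1 in those labelled shPou3f3os, against 35.2 and 25.1 FPKM in the controls. It fell in all 3 knockdowns (log2 changes -1.76, -1.93 and -1.61; adjusted p = 0.0160, 0.0359 and 0.0126 by limma). Mycn, on the same list of Myc and mTORC1 growth genes, ran the other way and did not pass. It averaged 87.9 FPKM in shNr2f1as and 83.8 FPKM in the libraries labelled shPou3f3os. In shSox21os it was at 75.2 FPKM, against a mean of 68.9 FPKM in the controls. The Mycn log2 changes were 0.35, 0.13 and 0.28 in shNr2f1as, shSox21os and shPou3f3os, and the list medians -0.32, -0.25 and -0.35. In the libraries labelled shPou3f3os, 2 of the 12 genes of the list fell beside Myc, against 0.716% of all entries called lower. These were Srm (-1.03, adjusted p = 0.0250 by limma) of spermidine synthesis and Rrp12 (-0.68, 0.0298) of ribosome assembly. The nucleolar Npm1 rose, from a mean of 205 FPKM in the controls to 504.5 FPKM (log2 change 1.40, adjusted p = 0.0409 by limma). Its change was 1.975 without control replicate 1 and 0.829 without control replicate 2. With the 3 knockdowns as 1 arm, 2.5% of all entries were called higher, against 1.47% called lower. The share called higher in each knockdown alone is not given here. Among 14 tested other amino acid transporters, Slc7a11, the cystine carrier, rose in shNr2f1as and in the libraries labelled shPou3f3os. It was at 3.5004 and 2.06 FPKM in shNr2f1as, 2.76 in shSox21os and 2.60 and 3.56 in those labelled shPou3f3os, against 0.640 and 0.0933 FPKM in the controls (log2 changes 1.47 and 1.598, adjusted p = 0.0433 and 0.0266 by limma). Slc7a6, a relative of Slc7a5, also rose in the libraries labelled shPou3f3os (0.98, adjusted p = 0.0409). Of these calls, Myc kept an adjusted p under 0.05 in shNr2f1as and shSox21os without any 1 library, and in the libraries labelled shPou3f3os lost it only without replicate 1 (0.131 by limma). The Slc7a11 call in shNr2f1as was lost without either of its libraries or control replicate 2 (0.0515 to 0.141). Srm, Rrp12, Npm1, Slc7a11 and Slc7a6 in the libraries labelled shPou3f3os were lost without either of them or control replicate 2 (0.115 to 0.227).

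Other translation and amino acid genes passed in none of the 3 knockdowns taken alone. None of 17 mitochondrial tRNA synthetases did, with medians of -0.07, 0.06 and -0.13 in shNr2f1as, shSox21os and shPou3f3os. The 3 scaffold proteins of the multisynthetase complex did not pass: Aimp2 was at 65.9 and 71.9 FPKM in shNr2f1as, 67.4 in shSox21os and 59.8 and 63.9 in those labelled shPou3f3os, against 84.1 and 81.9 FPKM in the controls, and Eef1e1 at 14.5 and 13.4 FPKM in shNr2f1as, 14.6 in shSox21os and 15.2 and 15.0 in those labelled shPou3f3os, against 13.4 and 8.97 FPKM in the controls. None of 22 other enzymes of serine, glycine, folate and non-essential amino acid metabolism passed. Among these, Asns, asparagine synthetase and a textbook ATF4 target, was at 42.9 and 38.5 FPKM in shNr2f1as, 43.7 in shSox21os and 33.1 and 38.2 in those labelled shPou3f3os, against 40.6 and 42.6 FPKM in the controls, so its groups overlapped, with log2 changes of -0.03, 0.07 and -0.22.

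TGATGNAA stood in promoters of genes with and without this pattern. Of the 13 genes with a RefSeq promoter that were below both controls in every knockdown library, 4 held a match (Aars, Iars, Tars and Yars), as did 2 of the 9 others (Gars and Slc1a4).

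Set beside the 12 LIF-withdrawal libraries, the 18 lower genes took up different places. For 7 of them (Aars, Hars, Iars, Mars, Nars, Mthfd2 and Slc7a1) the retinoic acid knockdowns lay below all 12 LIF-withdrawal libraries. That is 21.9% of the 32 genes, against 1.12% of all entries tested that were both below the 2 controls and below the 12. Aars, for example, was at 54.3 to 67.1 FPKM in the knockdowns, against 91.4 to 151 FPKM in the 12, and Mthfd2 at 5.12 to 6.26 against 8.04 to 30.2 FPKM. For 7 others (Cars, Dars, Vars, Yars, Phgdh, Shmt2 and Atf5) it was the retinoic acid controls that lay above all 12, again 21.9% of the 32, against 6.19% of all entries. Cars was at 46.8 and 48.1 FPKM in those controls and 20.99 to 45.1 FPKM in the 12, and Yars at 48.1 and 42.7 against 25.6 to 39.2 FPKM. Kars, Farsa, Tars and Slc7a5 did neither.

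Between the 3 retinoic acid knockdowns no gene of the 32 passed. In shNr2f1as against the libraries labelled shPou3f3os the largest differences were Slc7a3 (log2 0.43 ± 0.24, adjusted p = 0.893 by limma), Psat1 (0.27 ± 0.33, 0.949) and Slc1a5 (0.25 ± 0.15, 0.898), with 0.00669% of all entries called and no gene of the 32 at an unadjusted p under 0.05, against 5.49% of entries. In shSox21os against the other two they were Psat1 (0.41 ± 0.37), Slc1a5 (0.39 ± 0.17) and Sars (0.29 ± 0.21), each with an adjusted p of 1 (limma), 0.00669% of entries called and 1 of the 32 at an unadjusted p under 0.05, against 3.19% of entries. A p that misses the threshold does not show that the knockdowns act alike.

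In the LIF-withdrawal knockdowns no gene of the 32 passed. In shEvx1as the median log2 change was 0.10, against 0.05 for all entries, and 0.00669% of entries were called. The largest changes were Slc1a4, at 8.64 and 5.71 FPKM in the knockdown and 9.62 FPKM without it (log2 -0.40 ± 0.32), Slc7a3, at 24.2 and 29.3 against 20.2 FPKM (0.39 ± 0.30), and Atf5, at 28.8 and 20.1 against 19.1 FPKM (0.32 ± 0.31), each with an adjusted p of 1 (limma). In shEVX1 the median was 0.11 against 0.05, with 0.00669% of entries called. Slc7a3 averaged 18.6 FPKM in the 2 shEVX1 libraries against 11.6 FPKM (0.63 ± 0.30), Psph at 11.97 and 9.13 against 6.99 FPKM (0.52 ± 0.20) and Mthfd2 at 25.6 and 24.2 against 19.2 FPKM (0.36 ± 0.31), all with an adjusted p of 1 (limma). At an unadjusted p under 0.05 the count was 0 of the 32 in shEvx1as, against 4.38% of all entries, and 1 (3.12%) in shEVX1, against 3.32%. None of the other lists of translation, amino acid, stress and growth genes had a called gene in shEvx1as, shEVX1 or shFendrr.

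The shFendrr libraries split. Of the 32 genes, 27 were lower in replicate 2 than in replicate 1, with a median log2 difference of -0.43, against -0.02 for all entries tested; in the other 6 groups of 2 libraries the median difference of the 32 genes lay between -0.11 and 0.08. Psat1 was at 96.2 and 39.0 FPKM in shFendrr replicates 1 and 2, on either side of the controls at 64.5 and 59.9 FPKM. Slc7a5 was at 116 and 55.7 FPKM against 84.3 and 80.3 FPKM, Mthfd2 at 30.2 and 14.6 against 16.8 and 21.01 FPKM and Cars at 45.1 and 26.3 against 31.5 and 30.6 FPKM. In these 4 genes replicate 1 was above both controls and replicate 2 below both. Against the control mean, the median over the 32 genes was 0.25 in replicate 1 and -0.19 in replicate 2. Slc7a1 was above both controls in both, at 11.8 and 12.2 against 7.49 and 9.89 FPKM.

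No gene of the 32 passed in shFendrr, against 0.147% of all entries, and 1 (3.12%) had an unadjusted p under 0.05, against 7.03% of all entries. The largest changes of the group means were Slc7a3 (31.7 and 17.9 FPKM in shFendrr against 14.7 and 19.1 FPKM; log2 0.49 ± 0.24, adjusted p = 0.733 by limma), Slc7a1 (0.43 ± 0.17, 0.680) and Psph (-0.30 ± 0.16, 0.767). The median of the 32 genes was 0.05, and it turned to -0.19 without shFendrr replicate 1 and 0.25 without replicate 2. Mesoderm markers were lower in both shFendrr libraries, at 48.6 to 85.7 FPKM summed against 176 to 190.2 FPKM in the controls. Trophoblast markers, nearly all Krt18, summed to 658 FPKM in replicate 1 and 1538 FPKM in replicate 2, against 718 and 1146 FPKM in the controls. Primitive streak and pluripotency sums split between the replicates as the 32 genes did, and the trophoblast sum split the other way. Neural progenitor markers, mostly Nes, were above both controls in both replicates, at 32.8 and 52.0 FPKM against 18.6 and 23.3 FPKM. Primitive streak markers (T, Mixl1, Eomes, Gsc and Lhx1) summed to 334 FPKM in shFendrr replicate 1, with 155 FPKM in replicate 2, against 229.5 and 237 FPKM in the controls. Pluripotency markers summed to 533 FPKM in the first replicate and 405 FPKM in the second, against 419.9 and 455 FPKM in the controls. Both of these sums lay above both controls in replicate 1 and below both in replicate 2, as did T, Mixl1, Eomes and Nanog taken singly. Pou5f1, Zfp42, Gsc and Lhx1 were higher in replicate 1 than in replicate 2 but lay between the controls in one of them. Esrrb and Klf4 were lower in replicate 1 than in replicate 2. The part of these markers in the split was not tested.

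**Figure D4:**
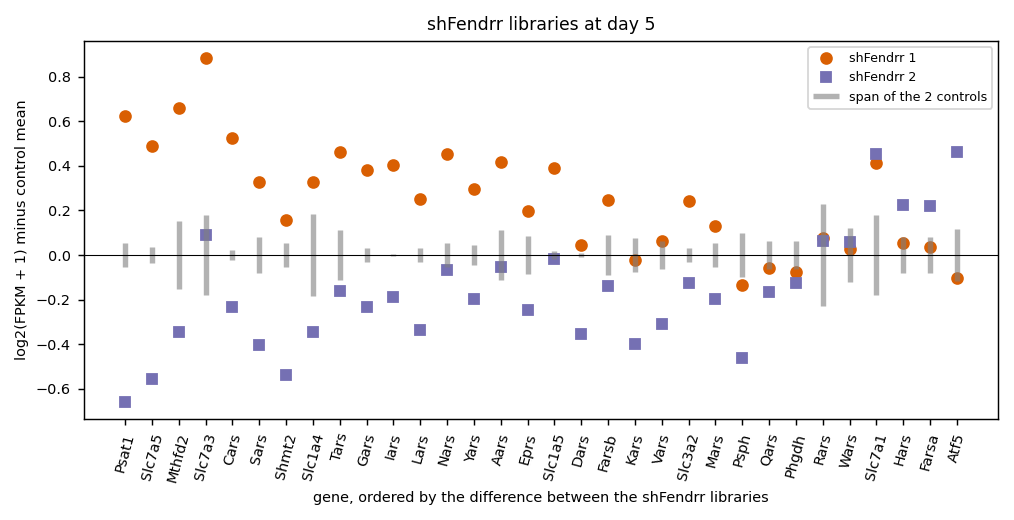
Log2(FPKM + 1) of the 32 genes in shFendrr replicate 1 (circles) and replicate 2 (squares) minus the mean of the 2 controls, whose span is the grey bar. Circles lie above squares for 27 genes, with Psat1, Slc7a5 and Mthfd2 farthest apart, and Atf5 the other way.

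In the Lhx1os experiment, with 1 library in each arm and so no test, 21 of the 32 genes (65.6%) were lower in shLhx1os than in its control, against 55.4% of all entries, with a median log2 difference of -0.20, against -0.06 for all entries. Slc7a5 was at 39.7 FPKM in shLhx1os against 98.0 FPKM in the control, 2.47-fold lower, and Slc7a3 at 9.80 against 4.04 FPKM, 2.42-fold higher. These were the only 2 of the 32 past 2-fold, a size reached by 7.67% of 9015 entries of at least 5 FPKM as lower and by 5.78% as higher, so the 1 gene in each direction was not above the background. Shmt2 was at 37.5 against 64.1 FPKM and Phgdh at 95.5 against 160.5 FPKM. In the same libraries mesoderm markers were at 22.0 FPKM in shLhx1os against 269 FPKM, and neural progenitor markers at 57.6 against 7.92 FPKM. The rise was nearly all Nes (55.0 against 6.02 FPKM), with Sox1, Pax6, Sox3 and Olig2 at 1.99 FPKM or less in both libraries. The part of these markers was not tested.

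Across the controls alone, the 2 kinds of culture differed in 15 of the 32 genes, 11 higher and 4 lower in retinoic acid. Those are 34.4% and 12.5% of the 32 genes, against 30.3% of all entries called higher and 29.5% called lower. The share of higher calls was thus near the background, and that of lower calls below it. The cultures differ in cell line, medium, serum and experiment, and these cannot be told apart. Atf5 (chromosome 7, 52067626 to 52071028) was at 70.9 and 73.1 FPKM in the retinoic acid controls, against 19.1, 15.1, 14.1, 16.7 and 13.8 FPKM in the LIF-withdrawal controls (log2 change 2.13 ± 0.21, adjusted p = 1.15e-05 by limma). Slc7a3 (chromosome X, 98274560 to 98280691) was at 2.37 and 1.90 FPKM in the retinoic acid controls, against 20.2, 11.6, 14.7, 19.1 and 4.04 FPKM in the LIF-withdrawal controls (log2 -1.99 ± 0.21, adjusted p = 1.51e-05). The lowest LIF-withdrawal value of Slc7a3 was the day-6 control, and all 5 were above the retinoic acid controls.

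Rars was at 27.6 and 19.04 FPKM in the retinoic acid controls, against 61.7, 67.6, 71.3, 98.5 and 58.0 FPKM in the LIF-withdrawal controls (log2 -1.51 ± 0.19, adjusted p = 5.82e-05 by limma), and Farsb at 24.2 and 13.2 FPKM in the retinoic acid controls, against 30.0, 36.9, 55.2, 62.8 and 33.0 FPKM in the LIF-withdrawal controls (-1.05 ± 0.22, 0.00178). The groups did not overlap in either gene, but the Farsb change was -1.47 without retinoic acid control replicate 1 and -0.64 without replicate 2. Farsa, whose product pairs with that of Farsb in 1 enzyme, was at 58.0 and 61.9 FPKM in the retinoic acid controls, against 67.9, 79.8, 57.3, 64.2 and 54.3 FPKM in the LIF-withdrawal controls, and the ratio of Farsb to Farsa was 0.323 to 0.470 in the retinoic acid knockdowns, 0.214 and 0.417 in their controls and 0.364 to 1.13 in the 12 LIF-withdrawal libraries. Slc1a5 was at 23.2 and 22.5 FPKM in the retinoic acid controls, against 9.62, 11.5, 10.6, 10.8 and 10.02 FPKM in the LIF-withdrawal controls (log2 1.06 ± 0.13, adjusted p = 4.95e-05 by limma). Dars (0.86 ± 0.11), Phgdh (0.82 ± 0.13) and Cars (0.67 ± 0.17) were also higher, with adjusted p of 8.25e-05, 0.000223 and 0.00531 (limma). Sars, Vars, Wars, Yars, Psph and Shmt2 rose as well, and Lars fell. Without retinoic acid control replicate 1 the count was 12, and without replicate 2 it was 13.

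**Figure D5:**
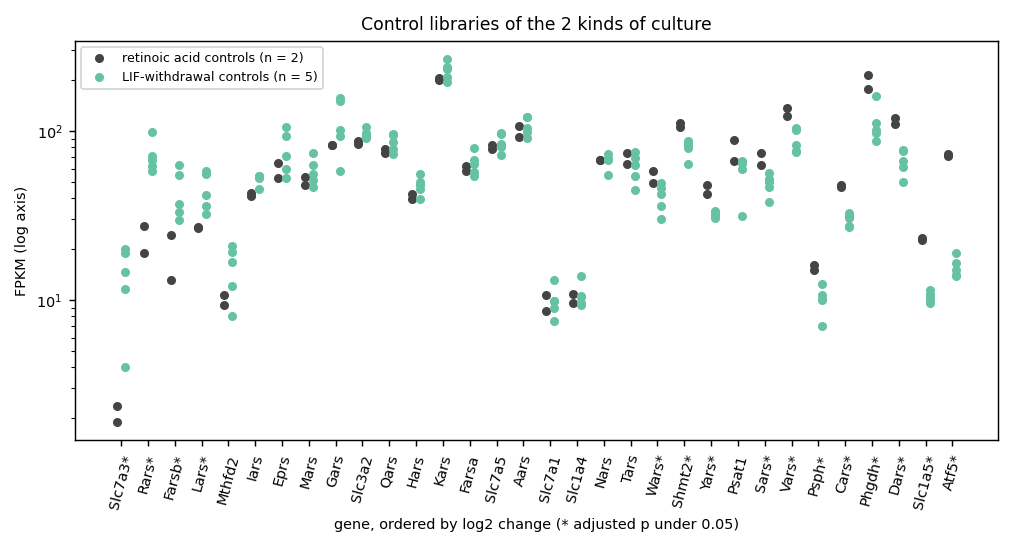
FPKM (log axis) of the 32 genes in the 2 retinoic acid controls (dark points) and the 5 LIF-withdrawal controls (green points), ordered by log2 change; stars mark genes that passed. The groups lie far apart at both ends, Slc7a3 and Rars at left and Atf5 and Slc1a5 at right.

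Over all 19 libraries the 32 genes differed widely in how far they varied. Kars was the most abundant by its median over libraries (159.5 to 267 FPKM, median 205 FPKM) and Slc7a1 the least (4.79 to 18.5 FPKM, median 9.03 FPKM). The ratio of the highest to the lowest library was 1.48 in Qars and 1.68 in Kars, against 16.7 in Slc7a3, 6.59 in Atf5 and 5.91 in Mthfd2, and among synthetases 5.29 in Farsb and 5.17 in Rars. In Rars, Lars, Farsb, Psph, Slc1a5 and Atf5 the 7 retinoic acid libraries did not overlap the 12 others. These 6 are 18.8% of the 32 genes, below the 27.6% of all entries that did not overlap.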

How the data were processed

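Poly(A) RNA was selected with oligo(dT) beads and made into stranded TruSeq libraries, per the labels' protocols. The submitters' processing notes name CASAVA, TopHat2 2.0.11 and the builds mm10 and mm9; no source used here states the program that computed FPKM, its annotation or its use of strand. The authors deposited FPKM for 38424 entries in 19 libraries, 11588 of them unnamed loci. Read counts were not used here, so the depth behind a value is unknown. Coordinates were read as mm9, since 5.69% of named coding genes had an end within 1000 bases of their GRCm38 position, and starts were converted to count from 1. Members and lists were chosen with earlier results of these data known.

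Values were analysed as log2(FPKM + 1), which understates changes of low genes, with limma 3.58.1 in R 4.3.3. The model had 12 group means over 19 libraries (7 groups of 2 and 5 of 1, so 7 residual degrees of freedom and a trended variance prior). A lone library is assumed to vary like the groups of 2. Tests were two-sided, p-values were adjusted by the Benjamini-Hochberg method over 14942 entries, and an adjusted p under 0.05 counts as passed. Errors of log2 changes are standard errors. Genes are named with tests where they passed or were among the 3 largest changes of a comparison; further members are given by value. The fit was checked on simulated data with changes put into well-expressed entries. Of changes of 0.6 log2 it recovered 15.2% in shSox21os, 17% in shEvx1as and 21.2% in shEVX1. In shNr2f1as, shPou3f3os and shFendrr it recovered 36.1%, 36.4% and 40%. False calls were 3.97% to 6.56% of calls over the comparisons. The simulated noise was independent between libraries, so this rate does not cover differences that libraries share. A gene that did not pass may still have changed by 0.6 log2. The alternatives were another pseudocount, other filters, 2 rescalings, a variance prior without a trend, each experiment or culture alone, a replicate block and each library left out.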

Additional observations from a re-analysis of the deposited data

How the results depend on the processing

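The signs of the medians in the retinoic acid knockdowns were the same under every alternative run, while the counts of the 32 genes that passed were not. In shNr2f1as the count of 1 became 0 with no filter beyond a value above 0, 0 with no variance trend, 0 in the retinoic acid culture fitted alone, 2 with a filter of 5 FPKM, and 0 to 2 on leaving out 1 library. In the libraries labelled shPou3f3os the count of 3 became 1 with no filter, 0 in the culture alone, and 0 to 2 on leaving out 1 library. With the 3 knockdowns as 1 arm the count of 6 became 3 with no filter, 0 in the culture alone, and 0 to 5 on leaving out 1 library. The shFendrr median ran from -0.193 to 0.249 on leaving out 1 library. The causes were not tested, except that leaving out libraries or fitting a culture alone leaves fewer samples.

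With a replicate block the counts were 3 in shNr2f1as and 6 in the libraries labelled shPou3f3os, and all entries called became 331 (from 101 without it) and 813 (from 346). Only 2 numbers are shared and the labels tie them to no batch, so they are not taken as pairs. The correlation of same-numbered deviations was 0.30 for shNr2f1as with its controls, -0.02 for shPou3f3os with them and 0.35 for shFendrr with its controls. Without a filter, all entries called were 47 in shNr2f1as, 216 in shSox21os (10 with it), 161 in shPou3f3os and 87 in shFendrr (22 with it).

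Over all comparisons, the count of member genes that passed and their median log2 change were scored against the main fit. Of these values, 150 under alternatives and 58 on leaving out 1 library were scored as the same, and 10 and 14 as moved. A median was the same if it stayed within the replicate spread of 0.122 log2, and a count if it was equal or close. Counts of 0 that stayed at 0 are among those scored as the same. FPKM carry no depth, so the precision of single values is unknown, and 5 of 12 groups have 1 library.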
